A study of Homo sapiens with 24 samples.

Results

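BCL3, BCL6, MCL1, PIM1 and MYC are survival and growth regulators that lie downstream of the transcription factor STAT3 in several cell types. They were chosen by gene symbol, with earlier results of these data known. Each was read by 1 probe set, so 5 of the 14884 named genes tested are described. RNA of HepG2, a line from a human liver tumour, was hybridised to 24 whole-transcript arrays. The treatments were the coded compound BRD8518 at 1 uM, oncostatin M (OSM), a cytokine of the interleukin-6 family, at 100 ng/mL, and DMSO alone, and every group had 0.25% DMSO. BRD8518 was read at 1 h (3 arrays), 6 h (2) and 24 h (3), OSM at 1 h (3) and 24 h (3), and the DMSO control at 1 h (3), 6 h (4) and 24 h (3). Each treatment had 6 wells of 10000 plated cells, and the labels do not say whether an array holds 1 well or several pooled. The study concerns compounds that induce TRIB1, and it set both agents against DMSO of the same time.

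OSM binds receptor complexes that contain gp130, the shared subunit encoded by IL6ST. Receptor-bound JAK kinases then phosphorylate STAT3, which enters the nucleus, binds TTCNNNGAA elements and switches on hepatic acute phase genes and its own inhibitor SOCS3. The same receptors also feed the RAS-ERK pathway, and MCL1, MYC and PIM1 are known as targets of growth-factor signals as well as of STAT3. PIM1 and MCL1 keep cells alive, BCL3 and BCL6 tune NF-kB and other transcription, and MYC drives growth.

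RefSeq start-site windows were used for 3 of the 5 genes, BCL3, BCL6 and PIM1, and those of MCL1 and MYC were not analysed here. The windows were taken by gene symbol and not by response, and a link of their letters to any change was not tested. Each window of GRCh38.p14 holds 250 bases before the start site and 50 from it on. The BCL6 window held 4 matches to TTCNNNGAA, the letters of a STAT element, at positions -28, -5, 11 and 37 counted from the start site. Of 35116 windows of this length, 7.66% held at least 1 such match and 7 windows (0.0199%) held 4 or more. The BCL3 and PIM1 windows held 0 matches each, and they held 4 matches each to GGGCGG, the letters of an Sp1 element, which 45.0% of windows contain and the BCL6 window does not. Capitals mark TTCNNNGAA in the BCL6 lines and GGGCGG, on either strand, in the others. The lines are chr3:187745465-187745718 on the minus strand, which runs 4 bases past the start to the end of the match there, the stretches chr3:187745444-187745464 and chr3:187745419-187745438 around the other 2 matches on that strand, chr19:44748458-44748707 on the plus strand and chr6:37169902-37170151 on the plus strand.
BCL6 upstream: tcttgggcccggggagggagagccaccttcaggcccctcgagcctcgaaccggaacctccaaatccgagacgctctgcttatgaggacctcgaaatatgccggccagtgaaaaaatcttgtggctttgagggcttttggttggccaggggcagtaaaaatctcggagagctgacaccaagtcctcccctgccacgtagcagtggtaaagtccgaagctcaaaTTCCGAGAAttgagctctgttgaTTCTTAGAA
BCL6 past the start, at 11: ctggggTTCTTAGAAgtggtg
BCL6 past the start, at 37: agaagtTTCTAGGAAaggcc
BCL3 upstream: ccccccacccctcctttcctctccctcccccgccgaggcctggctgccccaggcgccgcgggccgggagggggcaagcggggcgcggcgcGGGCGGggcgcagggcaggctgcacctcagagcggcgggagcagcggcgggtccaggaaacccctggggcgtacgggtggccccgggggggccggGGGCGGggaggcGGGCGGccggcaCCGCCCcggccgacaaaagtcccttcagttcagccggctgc
PIM1 upstream: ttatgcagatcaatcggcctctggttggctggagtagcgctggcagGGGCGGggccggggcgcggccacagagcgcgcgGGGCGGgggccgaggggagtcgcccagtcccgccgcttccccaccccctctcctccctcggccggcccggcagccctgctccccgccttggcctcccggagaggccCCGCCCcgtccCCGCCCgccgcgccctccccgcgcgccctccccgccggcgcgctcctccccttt

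Other letters searched on both strands were TGACGTCA (CRE, 1.85% of windows), TGANTCA (AP-1, 7.71%), CACGTG (E-box, 7.26%) and a loose NF-kB form, GGG and CC with 5 bases between, found in 58.7%. The first 3 had 0 matches in the windows above. The NF-kB form, which can overlap GGGCGG, had 4 in BCL3 and 7 in PIM1 and 0 in BCL6. A further BCL6 window, at an alternative start on the same strand, held 1 TGANTCA match and 0 of TTCNNNGAA. A match of letters is a description and says nothing of binding.

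The arrays of a group were alike, with a mean correlation to the rest of the group of 0.995 to 0.997 outside the 6 h controls. The exception was the second of the 4 DMSO arrays at 6 h (0.977), while the other 3 correlated at 0.988 to 0.991 with their group. Changes of single genes against the 6 h controls are therefore given in the text with and without that array. The counts within gene lists use all arrays. Of the 10 hepatocyte markers listed 8 were measured, at mean levels from 8.48 to 12.4 on the log2 scale, and the group mean of the list ran from 10.9 (24 h of BRD8518) to 11.4 (1 h of OSM). At 24 h of BRD8518 5 of the 8 fell and 0 rose (median -0.40), where 15.6% of all genes fell and 12.1% rose. At 24 h of OSM 4 fell and 1 rose (median -0.25), where 5.65% of all genes fell and 4.60% rose. Of 12 markers of other cell types 9 were measured, at 4.96 to 12.2, with the group mean of that list between 7.45 (24 h of DMSO) and 7.64 (1 h of OSM). At 24 h of BRD8518 2 of these 9 rose, CD68 by 1.19 ± 0.08 (SE) and KRT19 by 0.97 ± 0.10 (limma, Benjamini-Hochberg adjusted p = 7.5e-11 and 4.9e-08), 0 fell, and the median change of the 9 was -0.06. At 24 h of OSM 3 of the 9 rose and 1 fell. The rises were CD68 (0.34 ± 0.08), CD14 (0.74 ± 0.14) and SOX9 (0.21 ± 0.06), and the fall was PECAM1 (-0.43 ± 0.10). The part of either list in the results was not tested. These are bulk samples, so a change in the makeup of the culture and a change of RNA per cell cannot be told apart. All levels below are log2 values, and a change is a difference of group means on that scale with the standard error (SE) of the fit.

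The 5 genes did not share a single course. PIM1 and MCL1 rose with both agents, early with OSM and by 6 h with BRD8518. BCL3 rose with OSM and did not pass the test at any time of BRD8518. BCL6 rose with BRD8518 at 1 h and 6 h, and with OSM at 24 h. MYC rose with BRD8518 at all 3 times and at neither time of OSM.

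**Figure D1:**
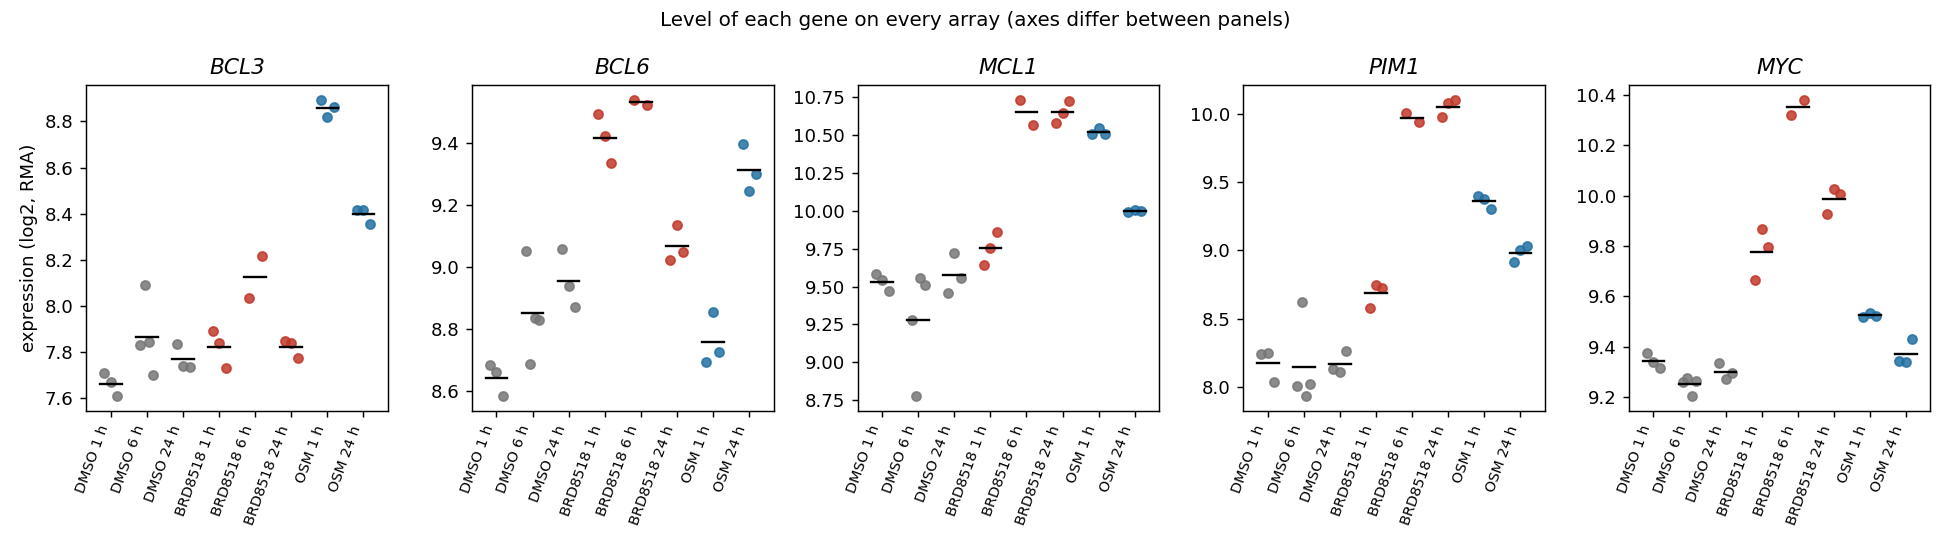
Log2 level (y axis, a scale of its own in each panel) of the 5 genes on each of the 24 arrays, grouped by treatment and time on the x axis. Points are arrays, grey for DMSO, red for BRD8518 and blue for OSM, and bars are group means. BCL3 is highest in the 1 h OSM arrays (8.82 to 8.89), MYC in the 6 h BRD8518 arrays (10.32 and 10.38), and PIM1 in the BRD8518 arrays of 6 h and 24 h (9.94 to 10.10).

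PIM1 encodes a serine/threonine kinase that is active once made and phosphorylates regulators of survival and the cell cycle. In DMSO it stood at 8.24, 8.25 and 8.03 at 1 h, at 8.01, 8.62, 7.93 and 8.02 at 6 h, and at 8.13, 8.11 and 8.26 at 24 h. With BRD8518 it stood at 8.58, 8.75 and 8.72 at 1 h, at 10.01 and 9.94 at 6 h, and at 9.97, 10.08 and 10.10 at 24 h. With OSM it stood at 9.40, 9.38 and 9.31 at 1 h and at 8.91, 9.00 and 9.03 at 24 h. Every treated array lay above every DMSO array of its time, and the one 6 h control that stood high was the array set apart above. The rise with BRD8518 was 3.55-fold at 6 h (1.83 ± 0.13; limma, Benjamini-Hochberg adjusted p = 1.2e-09; 1.99 without that control) and 3.69-fold at 24 h (1.88 ± 0.12, adjusted p = 6.3e-11). It was the 21st largest rise of all 14884 genes at 6 h. At 1 h the change of 0.51 ± 0.12 did not pass (adjusted p = 0.11), though it did without the second 6 h control, which adds to the shared spread (0.51, adjusted p = 3.1e-04). With OSM the rise was 2.28-fold at 1 h (1.19 ± 0.12, adjusted p = 6.3e-07) and 1.76-fold at 24 h (0.81 ± 0.12, adjusted p = 6.1e-05).

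The PIM1 effect of BRD8518 was largest at the later times. It grew by 1.32 ± 0.18 from 1 h to 6 h (limma, adjusted p = 6.7e-05; 1.48 without the second control). Between 6 h and 24 h it moved by 0.05 ± 0.18 (95% interval -0.32 to 0.42), and by -0.10 without that control, so its direction there is not settled. The OSM effect was smaller at 24 h than at 1 h by 0.38 (SE 0.17), which did not pass (adjusted p = 0.38; 0.019 without the second 6 h control). In the order of its group means PIM1 was highest with BRD8518 at 24 h and 6 h, whose arrays overlapped. The groups with OSM at 1 h, OSM at 24 h and BRD8518 at 1 h followed with no overlap between neighbours, and the 3 DMSO groups came last and overlapped.

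MCL1 encodes an anti-apoptotic BCL2 family protein with a short half-life, so its amount tracks ongoing synthesis. In DMSO it stood at 9.58, 9.55 and 9.47 at 1 h, at 9.28, 8.78, 9.56 and 9.51 at 6 h, and at 9.46, 9.72 and 9.56 at 24 h. With BRD8518 it stood at 9.64, 9.76 and 9.86 at 1 h, at 10.73 and 10.56 at 6 h, and at 10.58, 10.64 and 10.72 at 24 h. With OSM it stood at 10.51, 10.54 and 10.51 at 1 h and at 9.99, 10.00 and 10.00 at 24 h. Treated and DMSO arrays did not overlap at any time, and the control at 8.78 was again the second 6 h array, here on the low side. BRD8518 raised MCL1 2.58-fold at 6 h (1.37 ± 0.14; limma, Benjamini-Hochberg adjusted p = 3.7e-07; 1.20 without that control) and 2.10-fold at 24 h (1.07 ± 0.13, adjusted p = 1.3e-06). The difference at 1 h was 0.22 ± 0.13 and did not pass (adjusted p = 1). OSM raised it 1.98-fold at 1 h (0.99 ± 0.13, adjusted p = 3.5e-05). The rise at 24 h of OSM was 0.42 ± 0.13 at adjusted p = 0.048. That last call was lost without any 1 of the 3 OSM arrays or without the first or the third 24 h control (0.36 to 0.42, adjusted p = 0.11 to 0.19). It was also lost with arrays centred on their medians (0.41) and when the letter of the position code entered the fit (0.41).

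For MCL1 the BRD8518 effect grew by 1.15 ± 0.19 between 1 h and 6 h (limma, adjusted p = 6.4e-04; 0.98 without the second control). It then differed by -0.30 ± 0.19 between 6 h and 24 h, which did not pass (adjusted p = 0.43; -0.13 without that control). The OSM effect was 0.57 smaller at 24 h than at 1 h (SE 0.19, adjusted p = 0.12), and this difference passed in a fit of those groups alone (adjusted p = 0.0041) and without the second 6 h control (adjusted p = 0.0025). The order of its levels was BRD8518 at 24 h and 6 h, which overlapped, then OSM at 1 h, OSM at 24 h, BRD8518 at 1 h and DMSO. Neighbours did not overlap from BRD8518 at 6 h down to BRD8518 at 1 h, and they did from there through the 3 DMSO groups.

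BCL3 encodes a nuclear IkB-type protein that binds p50 and p52, the NF-kB subunits made from NFKB1 and NFKB2, and can activate or repress their targets. In DMSO it stood at 7.71, 7.67 and 7.61 at 1 h, at 7.83, 8.09, 7.84 and 7.70 at 6 h, and at 7.84, 7.74 and 7.73 at 24 h. With OSM it stood at 8.89, 8.82 and 8.86 at 1 h and at 8.42, 8.42 and 8.36 at 24 h. With BRD8518 it stood at 7.89, 7.84 and 7.73 at 1 h, at 8.03 and 8.21 at 6 h, and at 7.85, 7.84 and 7.77 at 24 h. All OSM arrays lay above every DMSO and BRD8518 array of the series, while BRD8518 arrays overlapped DMSO at 6 h and 24 h. The OSM rise was 2.29-fold at 1 h (1.20 ± 0.08; limma, Benjamini-Hochberg adjusted p = 8.5e-10) and 1.54-fold at 24 h (0.63 ± 0.08, adjusted p = 1.2e-05). The fall of this effect from 1 h to 24 h, by 0.57 (SE 0.12), passed its own test (adjusted p = 0.0051).

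With BRD8518 the differences of BCL3 were 0.16 ± 0.08 at 1 h, 0.26 ± 0.09 at 6 h and 0.05 ± 0.08 at 24 h (limma, adjusted p = 1, 0.054 and 0.74). The 6 h value lay at the threshold. It was 0.33 without the second control (adjusted p = 0.0011), 0.33 with arrays centred on their medians (adjusted p = 0.012) and 0.17 to 0.35 over all fits that left out 1 of the 6 arrays. The 95% intervals at 1 h and 24 h end at 0.33 and 0.22, below the OSM rise at the same time. The microRNA gene MIR8085 overlaps BCL3 in RefSeq by position. Whether its transcript adds to this probe set was not tested.

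BCL6 encodes a zinc-finger repressor that recruits co-repressors such as BCOR. In DMSO it stood at 8.68, 8.66 and 8.58 at 1 h, at 9.05, 8.69, 8.84 and 8.83 at 6 h, and at 9.06, 8.94 and 8.87 at 24 h. With BRD8518 it stood at 9.49, 9.42 and 9.33 at 1 h, at 9.54 and 9.52 at 6 h, and at 9.02, 9.14 and 9.05 at 24 h. With OSM it stood at 8.69, 8.86 and 8.73 at 1 h and at 9.40, 9.24 and 9.30 at 24 h. BRD8518 arrays lay far above DMSO at 1 h and 6 h and among them at 24 h, while OSM arrays lay just above DMSO at 1 h and clear of it at 24 h. The BRD8518 rise was 1.71-fold at 1 h (0.77 ± 0.08; limma, Benjamini-Hochberg adjusted p = 1.1e-05), the 15th largest of all genes. At 6 h it was 1.60-fold (0.68 ± 0.09, adjusted p = 1.0e-05; 0.62 without the second control), and at 24 h the difference was 0.11 ± 0.08 (adjusted p = 0.39). OSM gave 0.12 ± 0.08 at 1 h (adjusted p = 0.74) and a 1.28-fold rise at 24 h (0.36 ± 0.08, adjusted p = 0.0063).

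The early rise of BCL6 was smaller at 24 h of BRD8518. The effect was lower at 24 h than at 6 h by 0.57 (SE 0.12; limma, adjusted p = 0.0033; 0.51 without the second control) and lower than at 1 h by 0.66 (SE 0.12, adjusted p = 2.9e-04). Between 1 h and 6 h it differed by -0.09 ± 0.12 (adjusted p = 0.79), a value that was 0.0010 when arrays were centred. The OSM effect at 24 h exceeded that at 1 h by 0.24 ± 0.12, which did not pass (adjusted p = 0.44). In DMSO itself BCL6 read 0.31 ± 0.08 higher at 24 h than at 1 h with no overlap of arrays, a difference that did not pass over all genes (adjusted p = 1). The BCL6-AS1 and LOC100131635 transcripts overlap BCL6 in RefSeq by position. Whether they add to its values was not tested.

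MYC encodes a transcription factor that pairs with MAX on E-box elements and drives growth and ribosome production. In DMSO it stood at 9.38, 9.34 and 9.32 at 1 h, at 9.26, 9.28, 9.21 and 9.26 at 6 h, and at 9.33, 9.27 and 9.30 at 24 h. With BRD8518 it stood at 9.67, 9.87 and 9.80 at 1 h, at 10.32 and 10.38 at 6 h, and at 9.93, 10.02 and 10.01 at 24 h. With OSM it stood at 9.52, 9.54 and 9.52 at 1 h and at 9.35, 9.34 and 9.43 at 24 h. BRD8518 arrays were clear of DMSO at all 3 times, and OSM arrays lay only narrowly above it. BRD8518 raised MYC 1.35-fold at 1 h (0.43 ± 0.06; limma, Benjamini-Hochberg adjusted p = 9.8e-04), 2.14-fold at 6 h (1.10 ± 0.07, adjusted p = 1.4e-10; 1.11 without the second control) and 1.61-fold at 24 h (0.68 ± 0.06, adjusted p = 2.0e-08). OSM gave 0.18 ± 0.06 at 1 h (95% interval 0.05 to 0.31, adjusted p = 0.19) and 0.07 ± 0.06 at 24 h (-0.06 to 0.20, adjusted p = 0.64).

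The MYC course with BRD8518 peaked at the middle time. The effect grew by 0.67 ± 0.09 from 1 h to 6 h (limma, adjusted p = 8.7e-05; 0.68 without the second control) and then fell by 0.42 (SE 0.09, adjusted p = 0.0044; same value without that control to 2 decimals). From 1 h to 24 h it differed by 0.25 ± 0.09 (adjusted p = 0.058), and 8 of 21 alternatives put that difference past the threshold. The 1 h call did not pass in a fit of those 6 arrays alone (0.43, adjusted p = 0.096). The position code of the 1 h BRD8518 arrays has letter B for the first and letter C, found nowhere else, for the others. Within letter B, where that first array stood alone against the 3 DMSO arrays, the MYC difference was 0.32 (adjusted p = 0.43), that of BCL6 0.85 (adjusted p = 0.038) and that of PIM1 0.41 (adjusted p = 0.45). Letter and treatment cannot be told apart for the other 2 arrays. All 6 h arrays, BRD8518 and DMSO, have letter D, which no array of another time has. Letter and time therefore cannot be told apart where 6 h is set against 1 h or 24 h. At 24 h the third DMSO array has letter B and all other arrays letter A.

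**Figure D2:**
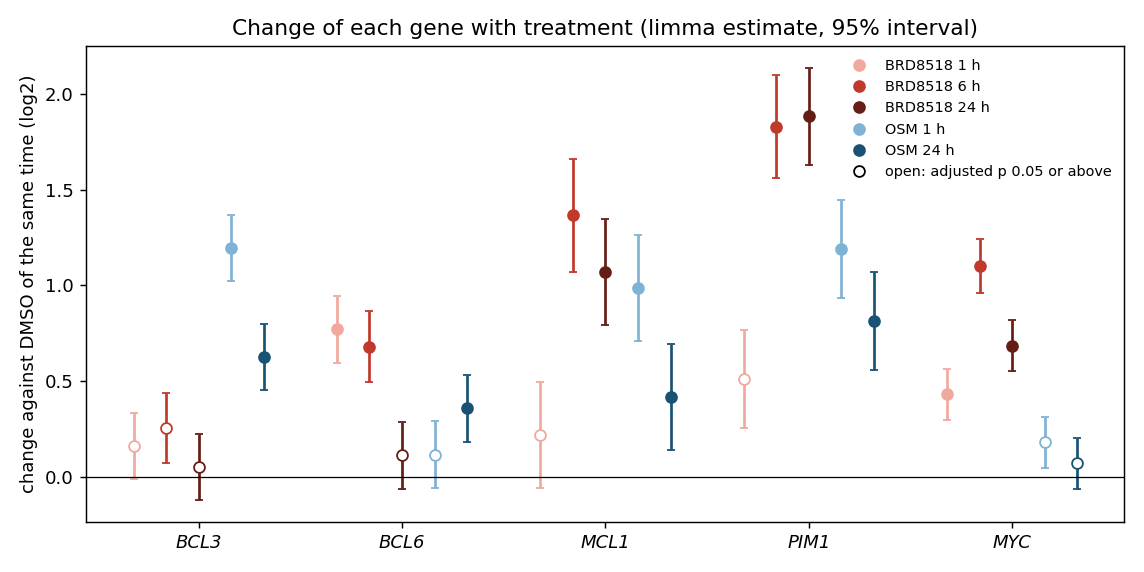
Change of each gene against DMSO of the same time (y axis, log2) for BRD8518 at 1 h, 6 h and 24 h and OSM at 1 h and 24 h. Points are limma estimates, bars their 95% intervals, and open points did not pass at an adjusted p of 0.05. PIM1 shows the largest changes (1.83 and 1.88 with BRD8518 at 6 h and 24 h), and all estimates lie above 0.

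Counted by comparison, 2 of the 5 genes rose at 1 h of BRD8518 (BCL6 and MYC), against 0.222% of all genes tested. At 6 h of BRD8518 4 rose (all but BCL3) against 5.62%, and at 24 h 3 rose (PIM1, MCL1 and MYC) against 12.1%. With OSM 3 rose at 1 h (BCL3, PIM1 and MCL1) against 2.03%, and 4 at 24 h (all but MYC) against 4.60%. The 5 genes were chosen with earlier results of these data known, so these counts describe them and do not test the set. None of the 5 fell in any of these comparisons. Of all genes, 0.0336%, 8.86% and 15.6% fell at the 3 times of BRD8518 and 0.813% and 5.65% at those of OSM. The median change of the 5 was 0.43, 1.10 and 0.68 at the 3 times of BRD8518 and 0.99 and 0.42 at those of OSM. The median of all genes was between -0.01 and 0.02. Of the differences between times of BRD8518, 3 of the 5 genes passed from 1 h to 6 h (6.01% of all genes), 2 from 6 h to 24 h (11.1%) and 3 from 1 h to 24 h (17.5%), and 1 passed between the times of OSM (3.37%). The comparisons at 1 h and at 24 h share their DMSO arrays between the agents. In DMSO 0 of the 5 changed between any 2 times (limma), where 0.00672% of genes passed from 1 h to 6 h, 0% from 6 h to 24 h and 0% from 1 h to 24 h, and 947, 599 and 424 genes had an unadjusted p under 0.05.

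Set directly against each other at 1 h, the agents differed in all 5 genes (2.34% of all genes passed). BCL3 was lower with BRD8518 than with OSM by 1.04 on the log2 scale (SE 0.08; limma, Benjamini-Hochberg adjusted p = 1.4e-08), and no arrays overlapped. MCL1 (-0.77 ± 0.13, adjusted p = 0.0011) and PIM1 (-0.68 ± 0.12, adjusted p = 0.0016) were lower too. BCL6 was higher with BRD8518, by 0.66 ± 0.08 (adjusted p = 2.2e-05). MYC was 0.25 ± 0.06 higher (adjusted p = 0.037), a call lost in a fit of the 6 arrays alone (adjusted p = 0.16), under quantile normalization (0.24) and without the second or the third BRD8518 array or any 1 OSM array (0.205 to 0.26).

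At 24 h all 5 again differed, where 23.2% of all genes did, and the sign was opposite to that at 1 h for PIM1, MCL1 and BCL6. PIM1 was 2.10-fold higher with BRD8518 than with OSM (1.07 ± 0.12; limma, Benjamini-Hochberg adjusted p = 6.2e-07), MCL1 1.57-fold (0.65 ± 0.13, adjusted p = 7.6e-04) and MYC 1.53-fold (0.61 ± 0.06, adjusted p = 1.7e-07). BCL3 remained lower with BRD8518 (-0.58 ± 0.08, adjusted p = 1.4e-05). BCL6 was lower too (-0.24 ± 0.08, adjusted p = 0.039). That BCL6 call was lost when arrays were centred (-0.21) and without the first or the third array of either agent (-0.25 to -0.20). The doses of the agents are in different units, so these differences hold for the doses used.

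**Figure D3:**
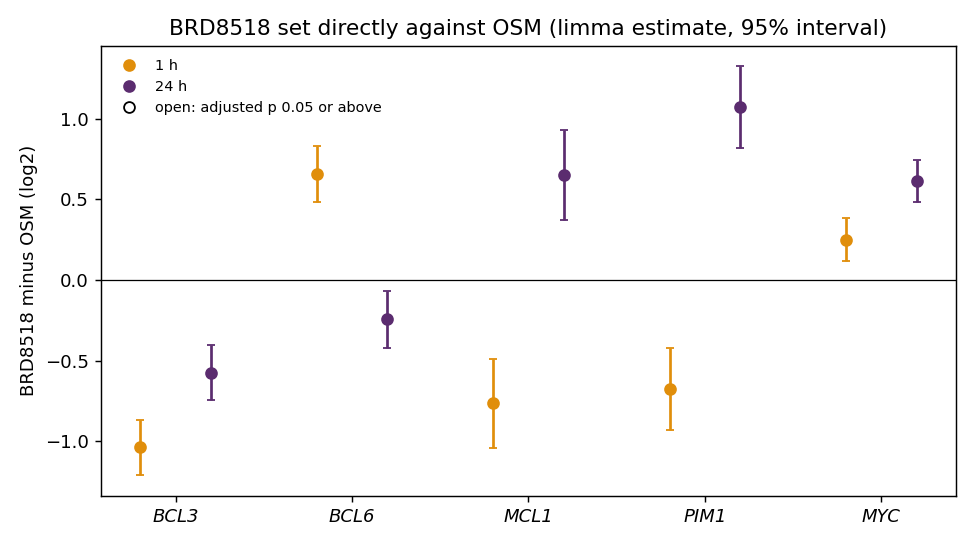
BRD8518 minus OSM (y axis, log2) for each gene at 1 h and 24 h, as limma estimates with 95% intervals; all 10 points are filled, since each passed at an adjusted p of 0.05. PIM1 and MCL1 lie below 0 at 1 h (-0.68 and -0.77) and above it at 24 h (1.07 and 0.65), BCL6 goes from 0.66 to -0.24, and BCL3 lies below 0 at both times.

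Over the 8 group means, PIM1 and MCL1 were the most alike of the 10 pairs (Pearson r = 0.97), followed by PIM1 with MYC (0.84) and MCL1 with MYC (0.77). BCL3 tracked none of the others closely (0.03 with BCL6 and MYC, 0.40 with PIM1, 0.52 with MCL1). Among all genes whose group means spanned at least 0.5, SPRY4, which encodes a feedback inhibitor of RAS-ERK signalling, was nearest to both PIM1 (0.99) and MCL1 (0.98). PIM1 was also near GDF15, JAG1, FZD5 and EPHA2 (0.97 each), and MCL1 near KBTBD2, YBX3, IER3 and LONRF1 (0.97 each). BCL3 was nearest to SOCS3 (0.96), which OSM raised by 4.75 ± 0.14 at 1 h and 3.47 ± 0.14 at 24 h. Over the alternatives other than leaving out 1 array, the lowest SOCS3 values were 3.91 and 2.62. Next to BCL3 came LCN2, CD14, ICAM1 and THRSP (0.96 each). MYC was nearest to the chemokine gene CXCL8 (0.99), then CLK1 (0.99), the MIR3189 probe set (0.98), PRDM7 (0.97) and BNIP1 (0.96). BCL6 had weaker partners, MIR3972 (0.87), TCIM (0.86), CCL7 (0.86), MT1B (0.83) and MIR548V (0.82). Of these, CCL7 and MT1B passed in no comparison with DMSO. MIR3972 and MIR548V passed only at 6 h of BRD8518 (limma, adjusted p = 0.042 and 0.024). These are descriptions over 8 points that share arrays and vehicle levels.

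The spans of the members' own group means were 1.91 for PIM1, 1.37 for MCL1, 1.20 for BCL3, 1.10 for MYC and 0.89 for BCL6. The median span of all genes was 0.35, and 99.0% of genes had a smaller span than PIM1 and 90.6% a smaller one than BCL6.

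Of 20 listed genes of the JAK-STAT3 pathway and its feedback, 13 were measured beside the members. Of all genes tested, 2.03% rose and 0.813% fell at 1 h of OSM, 4.60% and 5.65% at 24 h of OSM, 0.222% and 0.0336% at 1 h of BRD8518, 5.62% and 8.86% at 6 h, and 12.1% and 15.6% at 24 h, and the counts below stand beside these shares. With OSM at 1 h 7 rose and 0 fell (median 0.37), led by the feedback inhibitors SOCS3 (4.75 ± 0.14), CISH (1.71 ± 0.09) and SOCS1 (1.39 ± 0.13; limma, adjusted p = 1.6e-07). At 24 h of OSM 6 rose and 1 fell, with the receptor gene OSMR up by 1.20 ± 0.07 and the receptor gene LIFR down (-1.06 ± 0.12). With BRD8518 0 passed at 1 h, 3 rose and 1 fell at 6 h, and 5 rose and 1 fell at 24 h. SOCS1 fell by 1.28 (SE 0.14) at 6 h, with -1.12 without the second 6 h control, and by 1.63 (SE 0.13) at 24 h. The interleukin-6 receptor gene IL6R rose by 1.05 ± 0.09 (1.12 without that control) and 2.24 ± 0.09 at those times, and JAK2 by 1.25 ± 0.15 at 24 h. SOCS3 with BRD8518 was 0.45 ± 0.14 higher at 6 h (limma adjusted p = 0.036, and 0.57 without the second control). That call was lost without any 1 of the other 5 arrays, and when the SOCS3 probe sets were averaged. Direct tests put SOCS3 4.60 lower (-4.60 ± 0.14) and SOCS1 1.60 lower (-1.60 ± 0.13) with BRD8518 than with OSM at 1 h.

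MCL1 is 1 of the BCL2 family, in which prosurvival members hold the pore formers BAX and BAK1 in check and BH3-only members release them. Of 16 others listed 14 were measured. At 1 h of OSM the pore former BAK1 (0.77 ± 0.11) and PMAIP1 (0.65 ± 0.11), whose product NOXA binds MCL1, were the 2 that rose, and at 24 h of OSM the same 2 rose (0.47 ± 0.11 and 0.62 ± 0.11). The BAK1 call at 24 h was lost without the first or second 24 h control. With BRD8518 0 passed at 1 h and 2 rose at 6 h, BCL2A1 (0.33 ± 0.11; limma, adjusted p = 0.044) and BCL2L1 (0.26 ± 0.07, adjusted p = 0.015). Without the second control their changes were 0.34 and 0.25. Both calls were lost without either BRD8518 array, that of BCL2A1 also without any 1 of the other 3 controls. BCL2A1 stood low, at 4.27 with BRD8518 and 3.94 in DMSO. At 24 h 6 rose and 1 fell (12.1% and 15.6% of all genes; median 0.24, with -0.00 for all genes). The rises included the prosurvival BCL2 (0.73 ± 0.11) and BCL2L1 (0.57 ± 0.07) and the BH3-only PMAIP1 (1.18 ± 0.11) and BMF (0.58 ± 0.09). BAX was the fall (-0.87 ± 0.13; limma, adjusted p = 1.0e-05). In DMSO at 24 h BCL2, PMAIP1 and BMF stood low, at 4.88, 5.39 and 5.41, where the median of gene means was 6.00, and BCL2L1 stood at 10.46. Over the alternatives other than leaving out 1 array, the lowest BMF value was 0.33.

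MYC acts within a network in which MXD proteins and MNT compete with it for MAX. Of 12 listed 10 were measured. MXD1, which encodes one of these competitors, rose by 1.90 ± 0.16 at 6 h of BRD8518 (limma, adjusted p = 1.1e-08; 1.71 without the second control) and by 1.50 ± 0.15 at 24 h. In all 2 rose and 1 fell at 6 h, where the calls of MLX (0.43 ± 0.12) and MLXIPL (-0.46 ± 0.12) were lost without either BRD8518 array. Without the second control their changes were 0.27 and -0.35. At 24 h 4 rose and 3 fell, where 12.1% and 15.6% of all genes did. The rises included MLXIP (0.75 ± 0.07) and MNT (0.42 ± 0.12). The falls were MLXIPL, the glucose-responsive partner of MLX (-1.06 ± 0.11), MXD3 (-0.57 ± 0.09) and MXD4 (-0.36 ± 0.12). Genes of MXD proteins therefore went both ways at 24 h. The MXD4 call was lost without the first or the third array of either group. OSM changed 0 at 1 h and at 24 h MLXIPL alone (-0.75 ± 0.11). MAX was measured and passed in no comparison with DMSO.

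Of 20 genes known as activated by MYC, such as nucleolar and metabolic genes, 14 were measured. At 6 h of BRD8518, where MYC was highest, 0 rose and 2 fell (median 0.00): E2F1 (-0.55 ± 0.14) and TERT (-0.43 ± 0.11), with -0.38 and -0.32 without the second control. Both calls were lost without the second BRD8518 array, and that of E2F1 without the first too. At 24 h 8 fell and 1 rose, where 15.6% and 12.1% of all genes did, with a median of -0.27 against -0.00 for all genes. The falls included E2F1 (-0.75 ± 0.13), the ribosome assembly gene MRTO4 (-0.63 ± 0.14) and lactate dehydrogenase LDHA (-0.56 ± 0.11; limma, adjusted p = 5.6e-04), and the rise was BOP1 (0.58 ± 0.14). With OSM 0 passed at either time.

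**Figure D4:**
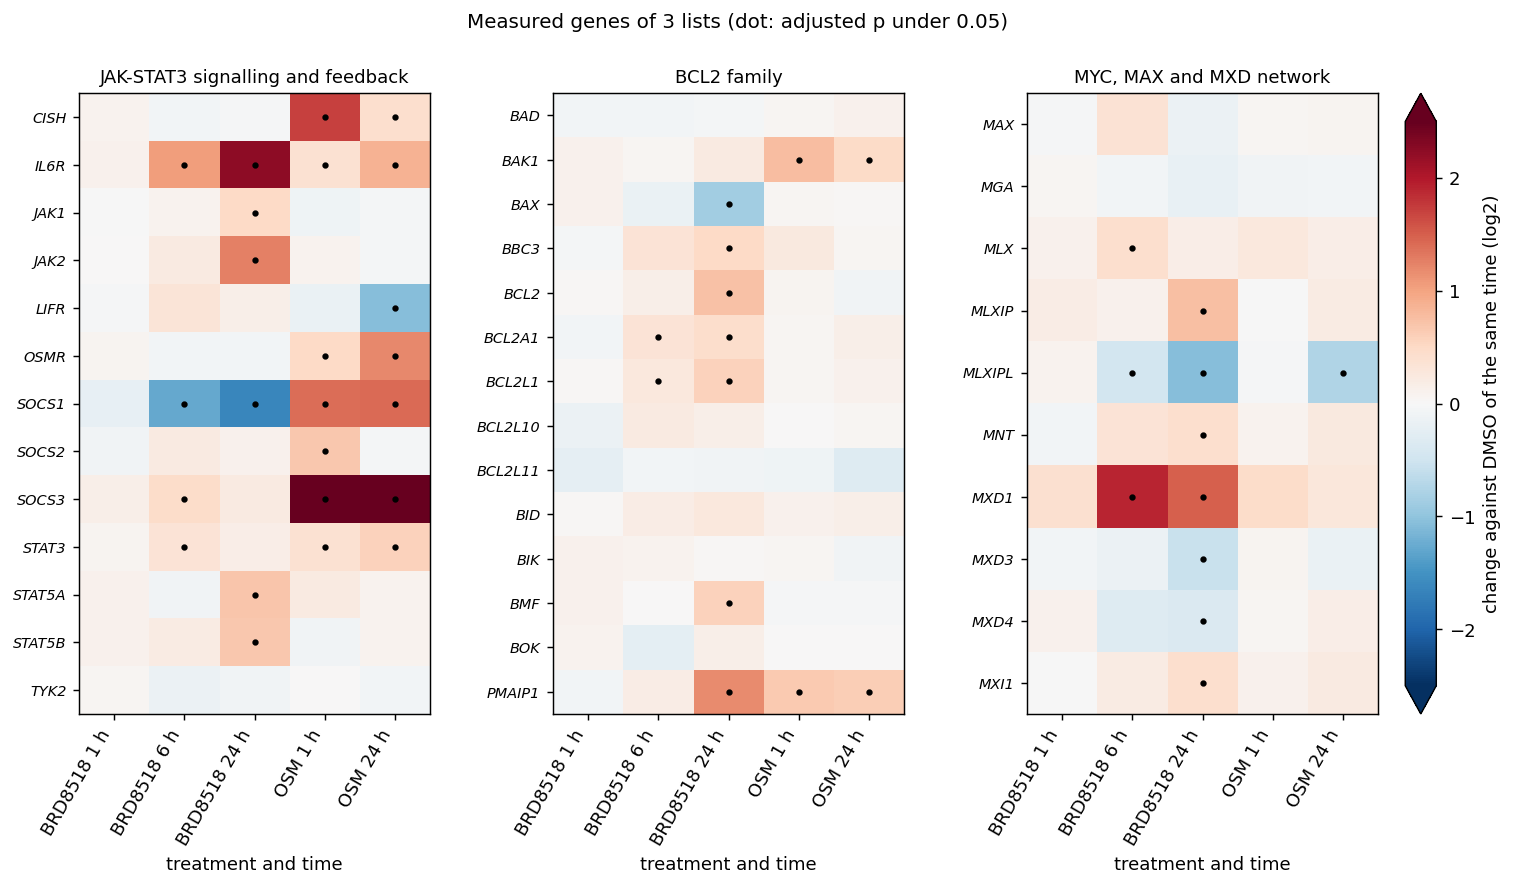
Change against DMSO of the same time (colour, log2, saturated beyond 2.5) of the measured genes of 3 lists (rows) in 5 comparisons (columns), with a dot where the adjusted p was under 0.05. SOCS1 is up with OSM (1.39 and 1.41) and down with BRD8518 at 6 h and 24 h (-1.28 and -1.63), MXD1 is up with BRD8518 (1.90 and 1.50), and BAX is down at 24 h of BRD8518 (-0.87).

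Of 6 measured NF-kB and IkB genes, through which BCL3 works, NFKB2 rose at 1 h of OSM (0.65 ± 0.14; limma, adjusted p = 0.012; lost without the second array of either group). REL rose at 6 h of BRD8518 (0.43 ± 0.13, adjusted p = 0.028; 0.27 without the second control; lost without either BRD8518 array). At 24 h of OSM REL fell (-0.54 ± 0.12, adjusted p = 0.0049) and RELA rose (0.24 ± 0.07, adjusted p = 0.036; lost without the first or the second control or the first or the third OSM array). At 24 h of BRD8518 4 rose and 1 fell, where 12.1% and 15.6% of all genes did, and the fall was NFKB1 (-0.40 ± 0.08, adjusted p = 5.1e-04). Of those rises, NFKB2 and RELB lost their calls without the first or the second array of either group.

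Of 9 measured PIM relatives and substrates, the cell cycle phosphatase gene CDC25A fell by 1.28 (SE 0.08) at 24 h of BRD8518 and by 0.84 (SE 0.08) at 24 h of OSM, and PIM2 by 0.65 (SE 0.09) at 24 h of BRD8518 (limma, adjusted p = 5.8e-06). In all 2 rose and 4 fell at 24 h of BRD8518 (12.1% and 15.6% of all genes). At 6 h of BRD8518 2 rose and 3 fell (5.62% and 8.86% of all genes). CDC25A was among those falls (-0.52 ± 0.08, limma adjusted p = 1.0e-04), with -0.45 without the second control. That call was lost in a fit of the 6 h groups alone. PIM3 was called higher at 1 h of OSM (0.81 ± 0.21, adjusted p = 0.033), at 6 h of BRD8518 (0.69 ± 0.22, adjusted p = 0.04; 0.98 without the second control) and at 24 h of BRD8518 (0.61 ± 0.21, adjusted p = 0.031). The first of these calls was lost without any 1 of its 6 arrays, the second without any 1 of its arrays but the second control, and the last without any 1 of its arrays but the third control.

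Of 8 measured BCL6 co-repressors and repressed targets 0 passed at 1 h of BRD8518 and 1 in each other comparison with DMSO, a share near or below that of all genes at 6 h and 24 h of BRD8518 and at 24 h of OSM. CHEK1 fell at 24 h of BRD8518 (-0.60 ± 0.14; limma, adjusted p = 0.002). The others were HDAC4 at 6 h of BRD8518 (-0.21 ± 0.07), BCOR at 1 h of OSM (0.26 ± 0.07) and CHEK1 at 24 h of OSM (-0.46 ± 0.14). Each lost its call without single arrays (3 of 6, 4 of 6 and any of 6). The HDAC4 change was -0.20 without the second 6 h control. Of 5 genes for turnover of MCL1 and MYC proteins, 1 rose and 1 fell at 24 h of BRD8518 (12.1% and 15.6% of all genes). The kinase gene AURKA fell at 6 h (-0.61 ± 0.10, and -0.68 without the second control) and 24 h (-0.76 ± 0.09) of BRD8518. Its 6 h call was lost in a fit of the 6 h groups alone. AURKA also fell at 24 h of OSM (-0.37 ± 0.09, limma adjusted p = 0.013), a call lost without the second DMSO or the third OSM array. USP13 rose at 24 h of BRD8518 (0.25 ± 0.07, limma adjusted p = 0.0048) and fell at 1 h of OSM (-0.27 ± 0.07, adjusted p = 0.022). Its 1 h call was lost without the first or the third array of either group.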

How the data were processed

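Log2 expression was measured in 24 HepG2 samples on Affymetrix whole-transcript arrays. The submitters' processing notes name RMA and oligo as the tools behind the deposited log2 values, and the sources used here give no version or genome build. They were used as deposited. RMA compresses low values and gives no detection call, and the number of arrays limits precision. Of 53617 probe sets, 16098 had 1 gene symbol in the platform annotation, 0 had several and 37519 were unnamed. All 16098 matched RefSeq by gene identifier. For 779 genes with several probe sets the highest mean was kept, which left 14884 genes.

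All arrays were fitted with limma 3.58.1 in R 4.3.3, 1 mean per group, with empirical Bayes moderation (total degrees of freedom 21.3). Two-sided p values were adjusted by Benjamini-Hochberg across all 14884 genes within a contrast, with a threshold of 0.05. The fit was tested on simulated data. The labels do not say that arrays of a group are separate cultures, so p values measure the spread between arrays, which may be technical. The title's position letter is not explained by the labels.

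The members and lists were chosen with earlier results of these data known. Named genes are the members, the 5 genes most correlated with each over group means, and up to 3 per direction of each list with the largest changes. Lists are described by counts and medians, not tested. Alternatives were centring, quantile normalization, trend and robust moderation, fits of the compared groups only, array weights, averaging a gene's probe sets, genes above the median level, the position letter as a term or 1 letter alone, and leaving out each array. Promoter windows are from RefSeq, GRCh38.p14. Figures were drawn with matplotlib 3.10.9.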

Additional observations from a re-analysis of the deposited data

Results flagged for a closer look

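PIM1 in the second DMSO array at 6 h stood far from its group, at 8.62 against 7.93 to 8.02 in the other 3 arrays. The threshold used sets a sample apart by chance in about 1 in 20 groups. The same array stood apart over all genes (mean correlation 0.977 with its group), and MCL1 was lowest on it (8.78 against 9.28 to 9.56).

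Effects that differed between times by a test of the difference itself (limma) were as follows. From 1 h to 6 h of BRD8518 the effect grew by 1.32 for PIM1, 1.15 for MCL1 and 0.67 for MYC. From 6 h to 24 h it fell by 0.57 for BCL6, and that of MYC fell by 0.42. From 1 h to 24 h it grew by 1.37 for PIM1 (SE 0.17, adjusted p = 4.0e-06) and 0.85 for MCL1 (SE 0.19, adjusted p = 0.0022) and fell by 0.66 for BCL6. For OSM the effect on BCL3 fell by 0.57 from 1 h to 24 h. Among all genes 6.01%, 11.1%, 17.5% and 3.37% passed in these 4 contrasts.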

How the results depend on the processing

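Of 70 results on the 5 genes (each gene in 14 contrasts), 53 kept their direction and side of the threshold under every alternative run, and 6 had a value of the opposite sign under at least 1. No paired analysis was possible because the labels give no replicate numbers that tie arrays of different groups. Centring moved the median change of all genes by at most 0.0941 (6 h minus 1 h of BRD8518) and quantile normalization by at most 0.0279. Of 91 calls of list genes against DMSO, 57 held throughout. Where calls changed, the cause was not tested. The number of arrays limits all of these results.

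For BCL3 at 6 h of BRD8518 the change was 0.32 with array weights, 0.33 with centred arrays, and 0.26 with genes above the median level or with trend and robust moderation, all past the threshold, and 0.17 to 0.35 with 1 array left out. Its 24 h minus 6 h effect was -0.29 with weights and -0.30 to -0.12 with 1 array left out. For BCL6 the 6 h minus 1 h effect was 0.0010 when centred, and BRD8518 against OSM at 24 h was -0.21 when centred and -0.28 to -0.20 with 1 array left out. For MCL1 at 24 h of OSM the change was 0.41 when centred and 0.41 with the position letter, both short of the threshold, and 0.36 to 0.49 with 1 array left out. Its OSM 24 h minus 1 h effect passed with weights (-0.53) and in the compared groups only (-0.57), and was -0.63 to -0.50 with 1 array left out. MYC at 1 h of BRD8518 fell short in the compared groups only (0.43), with the letter as a term (0.32) and in letter B alone (0.32). Its 24 h minus 1 h effect passed with weights (0.26), centred (0.30), above the median level (0.25), with the letter (0.36), quantile normalization (0.28) and trend (0.25), and was 0.20 to 0.30 with 1 array left out. MYC between the agents at 1 h fell short in the compared groups only (0.25), with the letter (0.14) and under quantile normalization (0.24), and was 0.205 to 0.31 with 1 array left out. At 1 h of OSM MYC passed with weights (0.17). PIM1 at 1 h of BRD8518 passed with weights (0.47) and was 0.44 to 0.56 with 1 array left out. Its 24 h minus 6 h effect was -0.065 with weights and -0.10 to 0.13 with 1 array left out, and its OSM 24 h minus 1 h effect passed with weights (-0.30) and was -0.41 to -0.31 with 1 array left out. Between DMSO times with 1 array left out, MCL1 from 1 h to 24 h was -0.026 to 0.107, and PIM1 was -0.074 to 0.032, -0.047 to 0.181 and -0.186 to 0.042 from 1 h to 24 h, 6 h to 24 h and 1 h to 6 h.

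Genes past the threshold at 1 h of BRD8518 numbered 38, 81 with weights, 15 with the letter, 16 in letter B and 25 to 76 with 1 array left out. At 6 h they were 2155, 3466 with weights and 1208 to 3345, and 452 in the compared groups only, which is the same fit as letter D alone. At 24 h they were 4122 and 3539 to 5315. With OSM they were 423, 1125 with weights and 274 to 806 at 1 h, and 1526, 3068 and 1107 to 2535 at 24 h. Between the agents they were 349, 934 with weights, 183 with the letter and 224 to 716 at 1 h, and 3458, 5286 with weights and 2741 to 4741 at 24 h. The effects between times gave 895, 1989 with weights, 327 in the compared groups only, 401 with the letter and 498 to 1898 (1 h to 6 h). They gave 1649, 2866, 875 in the compared groups only and 1018 to 2741 (6 h to 24 h), and 2604, 4012 with weights, 1605 with the letter and 2196 to 3873 (1 h to 24 h). For OSM they were 502, 1324 with weights, 828 in the compared groups only and 384 to 1100. In each of these contrasts the highest count with 1 array left out came without the second 6 h control. In DMSO 1 gene passed from 1 h to 6 h, and 0 in the compared groups only. From 1 h to 24 h 0 passed, 1 with weights, centred, above the median level or with trend, and 0 to 1 with 1 array left out.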
